A study of Homo sapiens with 14 samples.

Results

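The genes described here are 10 genes of the Hippo pathway's YAP programme, of 62699 genes counted. They are *ANKRD1*, *CCN1*, *CCN2*, *AMOTL2*, *AJUBA*, *LATS2*, *THBS1*, *AXL*, *F3* and *YAP1* itself. They were taken by symbol from the table of counts per gene. They were chosen by readout, with their levels in the control libraries and their ratios of ADAR siRNA to control siRNA already known. Those levels and ratios are therefore given as a description, with no test. Only genes that are not members were tested, in lists from the pathway and from programmes related to it. Those lists, too, were chosen with earlier results of these data known.

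In the Hippo pathway, the kinases MST1 and MST2 activate LATS1 and LATS2, which phosphorylate the coactivator YAP and its relative TAZ and hold them in the cytoplasm. Unphosphorylated YAP enters the nucleus, binds the TEAD transcription factors and switches on target genes such as *CCN1*, *CCN2* and *ANKRD1*. Several targets, *LATS2* and *AMOTL2* among them, act back on the pathway as inhibitors. YAP activity is set mainly by its location and phosphorylation, neither of which was measured here.

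The 14 libraries measured poly(A) RNA of 4 human cancer cell lines in bulk. Breast cancer of the triple-negative kind is represented by MDA-MB-231 and by BT-549, lung adenocarcinoma by NCI-H1395 and gastric cancer by AGS, as labelled. Each line gave 2 ADAR siRNA libraries, called libraries 1 and 2, and 1 control siRNA library. The siRNA targets *ADAR*, the gene of the RNA-editing enzyme ADAR1, and the series asks what ADAR1 and the nucleolar protein NOP14 do to transcription. A further pair from MDA-MB-231 consists of 1 library overexpressing NOP14 and 1 labelled PCDH as its control. No other allele or agent is named for any group, and the siRNA dose and time are not given in the sources used here. Whether libraries 1 and 2 came from separate cultures, or from 1 siRNA or different ones, is not given either. Any spread or p-value within a line therefore covers only the difference between those libraries. The test over the 4 lines adds those libraries together and takes its spread from differences between lines.

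Library totals ran from 13338338 to 27828376 counts. The ADAR level in ADAR siRNA libraries was 10.7% to 33.3% of the control of its line, the least depletion being in MDA-MB-231, and NOP14 stood at 6.56 times its PCDH level in the overexpression library. In the 3 NCI-H1395 libraries, the lung lineage markers *NKX2-1*, *NAPSA*, *SFTPB* and *SFTPC* summed to between 0.162 and 1.35 CPM (a count's share of its library, after scaling), and *SFTPC* was at 0 in all of them. *EPCAM* reached at most 0.564 CPM there, while *VIM*, a mesenchymal marker, lay between 1470.4 and 2466 CPM. The lung markers that would define the labelled type were thus at or near 0 in that line. There 5 epithelial markers summed to 618 to 757 CPM, almost wholly from the keratins *KRT8* and *KRT18*. The others, *EPCAM*, *CDH1* and *KRT19*, were near 0, with *CDH1* at no more than 0.705 CPM. AGS held *EPCAM* at 302 to 385 CPM. Of its gastric and intestinal markers, *CDX2* lay between 47.0 and 83.5 CPM. *TFF2*, *CDX1* and *GKN1* were at 0 in AGS, and *TFF1* and *MUC5AC* reached at most 2.29 and 0.539 CPM. The summed level of 4 immune markers reached at most 1.245 CPM in the 4 lines.

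The core binding sequence of TEAD factors, GGAATG, was searched on both strands in 300-base windows around the transcription starts, taken from RefSeq on GRCh38.p14. It occurred in 14.0% of 35116 such windows, 1.37% held 2 or more copies and 0.128% held 3 or more. It occurred in 8 of the 12 windows of members, and in at least 1 window of 8 of the 9 members that have one in that table. The share of all genes with it in at least 1 window was not counted. The 250 bases before the start are printed for *ANKRD1*, *CCN2* and *THBS1*, whose ratios part from each other below, and for *YAP1*, the gene of the coactivator. Each runs 5′ to 3′ on the strand of its gene, and capitals mark GGAATG. The stretches lie at chr10:90921088-90921337 on the minus strand, chr6:131951373-131951622 on the minus strand, chr15:39580829-39581078 on the plus strand and chr11:102110197-102110446 on the plus strand, in the order below.
ANKRD1: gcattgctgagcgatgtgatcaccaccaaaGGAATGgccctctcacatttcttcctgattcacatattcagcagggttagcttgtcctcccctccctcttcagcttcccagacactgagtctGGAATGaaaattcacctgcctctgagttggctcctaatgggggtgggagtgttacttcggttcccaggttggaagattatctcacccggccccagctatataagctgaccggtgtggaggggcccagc
CCN2: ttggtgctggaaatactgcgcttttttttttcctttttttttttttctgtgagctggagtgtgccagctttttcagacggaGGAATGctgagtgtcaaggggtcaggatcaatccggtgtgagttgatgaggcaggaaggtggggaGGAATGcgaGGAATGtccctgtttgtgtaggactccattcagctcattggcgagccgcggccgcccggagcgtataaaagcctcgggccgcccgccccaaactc
THBS1: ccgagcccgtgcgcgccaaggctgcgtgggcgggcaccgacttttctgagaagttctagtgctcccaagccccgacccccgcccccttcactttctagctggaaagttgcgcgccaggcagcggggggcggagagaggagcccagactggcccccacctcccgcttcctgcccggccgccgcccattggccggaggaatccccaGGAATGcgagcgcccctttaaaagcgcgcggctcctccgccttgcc
YAP1: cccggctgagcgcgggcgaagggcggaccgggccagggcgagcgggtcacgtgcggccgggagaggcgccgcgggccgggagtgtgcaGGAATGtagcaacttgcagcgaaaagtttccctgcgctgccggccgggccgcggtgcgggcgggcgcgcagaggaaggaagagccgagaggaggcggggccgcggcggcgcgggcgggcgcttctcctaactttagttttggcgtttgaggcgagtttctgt

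*CCN2* held 3 copies, beginning 169, 104 and 95 bases before its start. *ANKRD1* held 2 copies, beginning 220 and 128 bases before its start. *THBS1* held 1 copy at 46 bases before its start and *YAP1* 1 copy at 162. *AMOTL2*, *AJUBA* and *AXL* held it in 1 of their 2 windows, and in *LATS2* it began 9 bases after the start. *F3* held none, but its window held 2 copies of the AP-1 motif TGANTCA, which occurred in 7.71% of all windows, and *ANKRD1* held 1 copy of that motif. The CArG box, the binding site of the factor SRF, was found in 1.29% of all windows and in none of the members'. These are matches of letters and not measured binding.

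Baselines of the 10 genes differed widely between lines for some members and little for others. Per kilobase of exon in the control siRNA libraries, the highest member was *ANKRD1* in MDA-MB-231 with 667 CPM per kilobase, *CCN1* in BT-549 with 153, *AXL* in NCI-H1395 with 536 and *ANKRD1* in AGS with 216. *LATS2* was low in every line, at 8.43 to 13.5 CPM per kilobase. *YAP1* itself stood at 33.7 to 64.1 CPM per kilobase in the 4 controls, highest in AGS, and its ranges over the 3 siRNA libraries of MDA-MB-231, BT-549 and NCI-H1395 overlapped. *ANKRD1* was all but absent from BT-549 and *F3* from BT-549 and NCI-H1395, as given below with their counts.

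**Figure D1:**
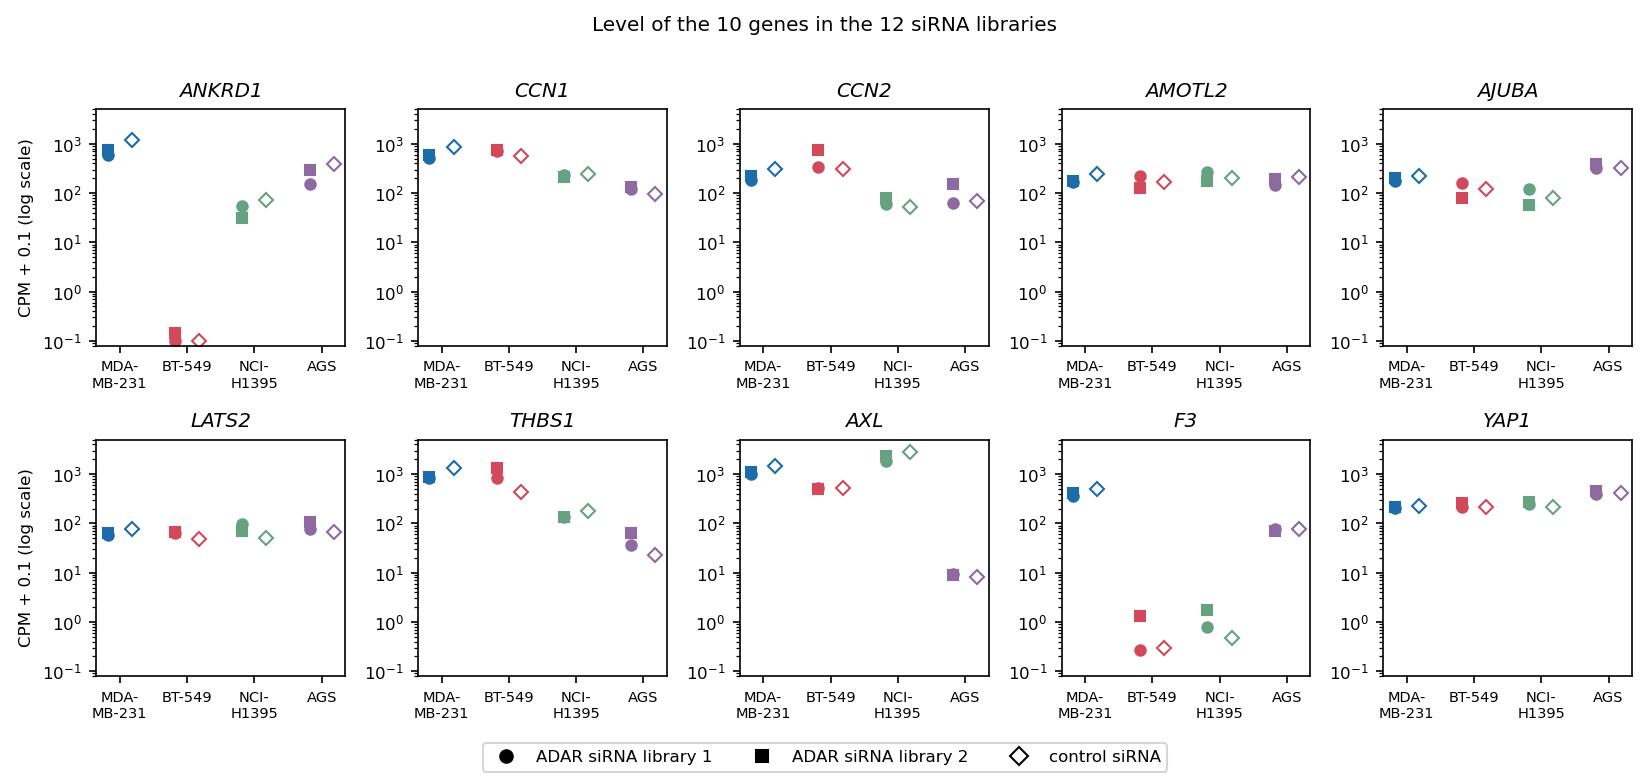
Level of each of the 10 genes, as CPM plus 0.1 on a log axis, in the siRNA libraries of 4 lines. Filled circles and squares are ADAR siRNA libraries 1 and 2 and open diamonds the single control siRNA library. *ANKRD1* and *F3* fall to the bottom of the axis in BT-549, and *AXL* ranges from 8.23 CPM in the AGS control to 2752 CPM in the NCI-H1395 control.

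The matrix-associated targets parted by line. *CCN1* and *CCN2* encode secreted matricellular proteins and *THBS1* encodes thrombospondin 1, a matrix glycoprotein. Each of them was below the control in both ADAR siRNA libraries of MDA-MB-231, and *THBS1* and *CCN1* were above it in both libraries of BT-549 and AGS.

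*THBS1* (ENSG00000137801.11, chr15:39581079-39599466, plus strand, hg38) stood at 839 and 882 CPM in ADAR siRNA libraries 1 and 2 of MDA-MB-231, against 1359 CPM in the control. In BT-549 it stood at 820 and 1321 CPM, against 429.9 CPM in the control. The breast lines thus parted in direction, with both ADAR siRNA libraries below the single control in MDA-MB-231 and above it in BT-549. Of expressed genes, 48.4% were below the control in both libraries of MDA-MB-231 and 29.2% above it in both of BT-549. In NCI-H1395 it stood at 136 and 137 CPM with ADAR siRNA, against 183 CPM in the control. In AGS it stood at 36.7 and 64.0 CPM, against 22.8 CPM in the control. Libraries of NCI-H1395 thus lay below the control and those of AGS above it. The ratios to the control, with 95% counting intervals, were 0.617 (0.604 to 0.631) and 0.649 (0.636 to 0.663) in MDA-MB-231, and 1.91 (1.86 to 1.96) and 3.07 (3.0 to 3.15) in BT-549. In AGS they were 1.61 (1.42 to 1.83) and 2.81 (2.50 to 3.15), and in NCI-H1395 0.747 and 0.751. Counting intervals cover counting error only, since reads without molecular identifiers are not independent molecules.

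*CCN1* (ENSG00000142871.18, chr1:85580761-85584589, plus strand) had 518 and 598 CPM in the ADAR siRNA libraries of MDA-MB-231, against 848 CPM in the control. In BT-549 it had 708 and 762 CPM with ADAR siRNA, against 567 CPM in the control. In AGS it had 121 and 133 CPM, against 93.8 CPM in the control. Both ADAR siRNA libraries of BT-549 and of AGS lay above the single control of the line, and the changes in both lines were smaller than for *THBS1*. In NCI-H1395, 228 and 213 CPM with ADAR siRNA, against 241 CPM in the control, lay within a narrow span. The ratios were 0.610 and 0.705 in MDA-MB-231, 1.248 and 1.344 in BT-549, 1.30 and 1.42 in AGS, and 0.949 and 0.883 in NCI-H1395.

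*CCN2* (ENSG00000118523.6, chr6:131948176-131951372, minus strand) differed widely between libraries 1 and 2 of BT-549 and of AGS. It had 332 and 739 CPM with ADAR siRNA in BT-549, against 309 CPM in the control. In AGS it had 62.9 and 156 CPM with ADAR siRNA, against 70.5 CPM in the control. Library 2 stood well above the control in both lines, while library 1 was close to it and in AGS below it. NCI-H1395 had 60.4 and 80.5 CPM, against 53.0 CPM in the control. In MDA-MB-231 it had 187 and 226 CPM, against 302 CPM in the control. The ratios were 1.07 and 2.39 in BT-549, 0.891 and 2.22 in AGS, 1.14 and 1.52 in NCI-H1395, and 0.620 and 0.750 in MDA-MB-231.

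*ANKRD1* encodes an ankyrin repeat protein of muscle and nucleus and is among the most used readouts of YAP activity. It (ENSG00000148677.7, chr10:90912096-90921087, minus strand) had 589.6 and 762 CPM in the ADAR siRNA libraries of MDA-MB-231, against 1193 CPM in the control. In NCI-H1395 it had 54.9 and 31.8 CPM with ADAR siRNA, against 72.2 CPM in the control. In AGS it had 156 and 293 CPM with ADAR siRNA, against 386 CPM in the control. Every ADAR siRNA library of these 3 lines was below its control, and libraries 1 and 2 differed most in AGS. In BT-549 the gene had 0 and 1 counts in the ADAR siRNA libraries and 0 in the control, where 3 counts would be 0.150 CPM, so no ratio is given. The ratios were 0.494 (0.482 to 0.507) and 0.639 (0.625 to 0.653) in MDA-MB-231, 0.761 (0.704 to 0.822) and 0.441 (0.398 to 0.487) in NCI-H1395, and 0.405 (0.387 to 0.423) and 0.758 (0.732 to 0.786) in AGS.

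*ANKRD1* and *THBS1* parted from each other in AGS. There the log2 ratio of *ANKRD1* was 1.99 lower than that of *THBS1* in library 1 and 1.88 lower in library 2, with *ANKRD1* below the control and *THBS1* above it in both. In MDA-MB-231 the differences, *ANKRD1* minus *THBS1*, were -0.32 and -0.02, and both genes were below the control. In NCI-H1395 they were 0.03 and -0.77, again with both genes below the control. In BT-549 *THBS1* was above the control and *ANKRD1* had no level to compare. The parting was chosen for description with these values known, so it carries no test.

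**Figure D2:**
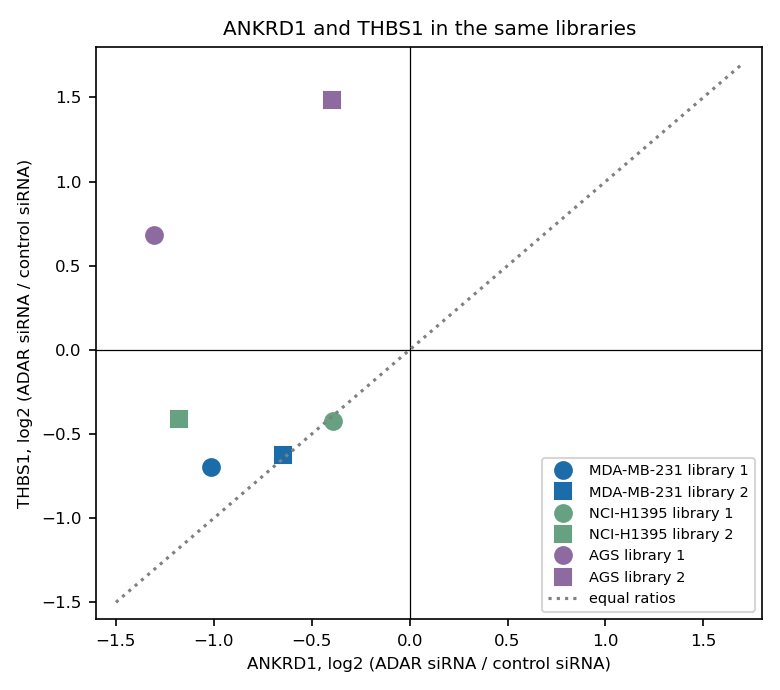
Log2 ratio of ADAR siRNA to control siRNA of *ANKRD1* (horizontal) against *THBS1* (vertical) in 6 libraries, with BT-549 left out for want of *ANKRD1* counts. Circles are library 1 and squares library 2, and the dotted line marks equal ratios. Only AGS, at *THBS1* log2 ratios of 0.68 and 1.48, lies above 0 for *THBS1* and below 0 for *ANKRD1*.

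The cell surface targets differed more between lines than between ADAR siRNA and control. *AXL* encodes a receptor tyrosine kinase and *F3* encodes tissue factor, the starter of blood coagulation. *AXL* (ENSG00000167601.12, chr19:41219223-41261766, plus strand) had 1002 and 1122 CPM in the ADAR siRNA libraries of MDA-MB-231, against 1462 CPM in the control. In NCI-H1395 it had 1844 and 2339 CPM, against 2752 CPM in the control. Both lines held it below the control in both libraries, at ratios of 0.685 and 0.767 in MDA-MB-231 and 0.670 and 0.850 in NCI-H1395. In BT-549 it had 532 and 504 CPM, against 528 CPM in the control, which lay between the ADAR siRNA libraries. In AGS it had 9.50 and 8.78 CPM, against 8.23 CPM in the control, and the ratios of 1.15 (0.920 to 1.45) and 1.07 (0.848 to 1.34) have counting intervals that include 1.

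*F3* (ENSG00000117525.14, chr1:94529173-94541759, minus strand) had 355 and 408 CPM in the ADAR siRNA libraries of MDA-MB-231, against 493 CPM in the control. In AGS it had 77.6 and 71.6 CPM, against 77.6 CPM in the control. It was thus below the control in MDA-MB-231, at ratios of 0.721 and 0.828, and close to it in AGS, at 1.0 and 0.923. In NCI-H1395 it rested on 16 and 28 counts with ADAR siRNA, against 7 counts in the control, and its ratios of 1.84 (0.716 to 5.29) and 4.35 (1.86 to 11.8) are accordingly imprecise. In BT-549 it rested on 3 and 27 counts, against 4 counts in the control.

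The regulators of the pathway, other than *LATS2*, split between libraries 1 and 2 in BT-549 and NCI-H1395. *AMOTL2* encodes an angiomotin-like protein that retains YAP outside the nucleus, *AJUBA* a LIM protein that inhibits LATS kinases, and *LATS2* one of the kinases that phosphorylate YAP. *AJUBA* (ENSG00000129474.17, chr14:22971177-22982551, minus strand) had 163 and 78.5 CPM with ADAR siRNA in BT-549, against 120 CPM in the control. In NCI-H1395 it had 123 and 56.6 CPM, against 78.4 CPM in the control. In each of these lines library 1 was above the control and library 2 below it. In MDA-MB-231 it had 173 and 201 CPM, against 219 CPM in the control, and in AGS 321 and 393 CPM, against 321 CPM in the control.

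*AMOTL2* (ENSG00000114019.15, chr3:134355347-134375479, minus strand) had 217 and 126 CPM with ADAR siRNA in BT-549, against 170 CPM in the control. The NCI-H1395 libraries had 267 and 176 CPM, against 205 CPM in the control. The control lay between libraries 1 and 2 in both lines, as for *AJUBA*. In MDA-MB-231 it had 167 and 177 CPM, against 249 CPM in the control, and in AGS 143 and 190.0 CPM, against 217 CPM in the control. Those lines held both libraries below the control, at ratios of 0.671 and 0.711 in MDA-MB-231 and 0.657 and 0.875 in AGS.

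*LATS2* (ENSG00000150457.9, chr13:20973036-21061586, minus strand) had 64.9 and 67.3 CPM with ADAR siRNA in BT-549, against 47.3 CPM in the control. In NCI-H1395 it had 96.9 and 70.8 CPM, against 51.7 CPM in the control. In AGS it had 78.5 and 107.3 CPM, against 65.3 CPM in the control. All 6 ADAR siRNA libraries of these lines were above their controls, at ratios of 1.37 and 1.42, 1.88 and 1.37, and 1.20 and 1.64 in that order of lines. In MDA-MB-231 it had 57.3 and 65.1 CPM, against 75.6 CPM in the control, at ratios of 0.759 and 0.862.

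*YAP1* itself (ENSG00000137693.14, chr11:102110447-102233424, plus strand) had the narrowest range of ratios of the 10 genes. It had 206 and 216 CPM in the ADAR siRNA libraries of MDA-MB-231, against 220.4 CPM in the control. In BT-549 it had 215 and 264 CPM, against 213 CPM in the control. In NCI-H1395 it had 244 and 277 CPM, against 213 CPM in the control, and in AGS 396 and 451 CPM, against 405 CPM in the control. Its ratios ran from 0.934 to 1.30 over the 8 ADAR siRNA libraries, the highest in NCI-H1395 library 2. Scaled by library totals, *YAP1* changed side in 4 of those libraries, both of MDA-MB-231 among them, while *AXL* changed side in BT-549 library 1 and *F3* in AGS library 2.

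**Figure D3:**
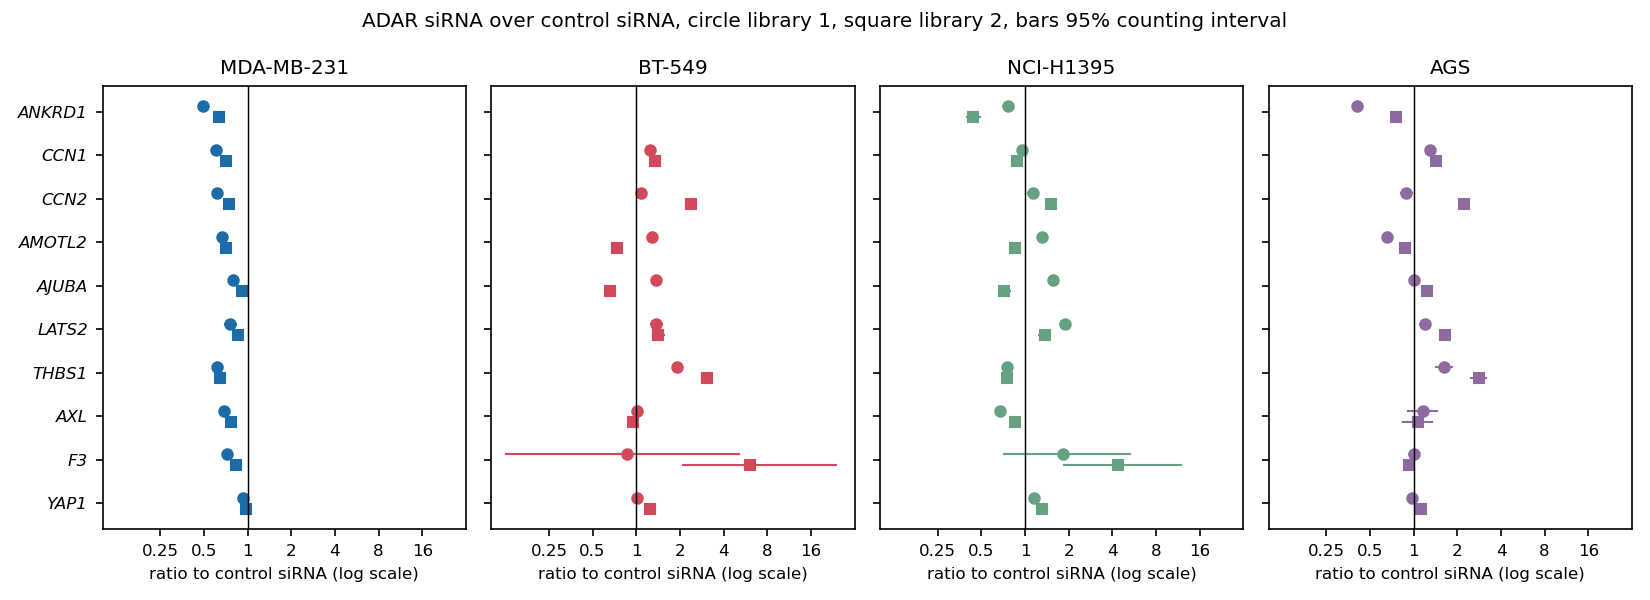
Ratio of each ADAR siRNA library to the control siRNA library of its line for the 10 genes, on a log axis, with 95% counting intervals as bars. Circles are library 1 and squares library 2, and *ANKRD1* has no points in BT-549. All 20 points of MDA-MB-231 lie left of 1, while *THBS1* lies right of 1 in BT-549 and AGS and left of 1 in NCI-H1395.

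By line, the members' directions differed. In MDA-MB-231 all 10 were below the control in both ADAR siRNA libraries, where 48.4% of 12057 expressed genes were, and 0 were above it, where 29.5% were. Scaled by library totals, 9 were below, *YAP1* being the exception. In BT-549, 5 were above in both, where 29.2% of genes were, and 0 were below in both, where 32.7% were. In NCI-H1395, 4 were above, beside 29.3% of genes, and 4 below, beside 38.8%. In AGS, 5 were above, beside 26.7% of genes, and 2 below, beside 34.7%. These contrasts chose the members, so nothing is read from their shares.

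Past a ratio of 1.5-fold in both libraries of a line, *ANKRD1* and *THBS1* were lower in MDA-MB-231, where 4.84% of genes were. Scaled by library totals, *THBS1* no longer passed there and *LATS2* also passed in NCI-H1395, as higher. *THBS1* was higher in BT-549, beside 2.25% of genes, and in AGS, beside 4.07%. *F3* was higher in NCI-H1395, beside 4.01%, on the few counts given above. No member was higher past that ratio in MDA-MB-231, where 3.76% of genes were, or lower in BT-549, NCI-H1395 or AGS, where 1.21%, 3.02% and 2.61% were. No member was on the same side of the control in all 8 ADAR siRNA libraries, where 2.11% of genes were higher in all and 5.72% lower in all. *LATS2* was higher in 6 of them and *AMOTL2* lower in 6. In BT-549 *ANKRD1* had at most 1 count, and it was lower in each of the 6 ADAR siRNA libraries of the other lines.

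The median log2 ratio of the 10 members was -0.56 in library 1 and -0.40 in library 2 of MDA-MB-231, beside -0.16 and -0.04 over all genes. The members' median was 0.21 and 0.47 in libraries 1 and 2 of BT-549, 0.19 and -0.20 in those of NCI-H1395, and 0.0006 and 0.23 in those of AGS. Over all genes, the median lay between -0.07 and 0 in each of these 6 libraries. The members' medians in BT-549 include *ANKRD1*, at 0 and 0.52 on at most 1 count, and *F3*, at -0.14 and 2.11 on 27 counts or fewer. Those in NCI-H1395 include *F3* on 28 counts or fewer. Medians without these genes were not taken. Scaling by library totals put the all-gene median of MDA-MB-231 library 1 at 0.05 and that of AGS library 2 at 0.12. Since RNA was measured in bulk, a lower level from fewer cells of one type and from less RNA per cell cannot be told apart.

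Libraries 1 and 2 of a line differed for several members. *CCN2*, *THBS1* and *YAP1* were higher in library 2 than in library 1 in all 4 lines, where 11.9% of expressed genes were, and no member was lower in all 4, where 5.73% were. Whether a number means the same in each line is not known, and the counting interval of that ratio included 1 for *THBS1* in NCI-H1395 and for *YAP1* in MDA-MB-231. For *CCN2* the ratio of library 2 to library 1 was highest in AGS at 2.49 and in BT-549 at 2.23, with 1.33 in NCI-H1395 and 1.21 in MDA-MB-231. *AJUBA* had ratios of 0.481 in BT-549 and 0.460 in NCI-H1395, but 1.16 in MDA-MB-231 and 1.23 in AGS. *AMOTL2* split by the same lines, with 0.578, 0.659, 1.06 and 1.33 in the same order. The remaining ADAR level in library 2 was 1.05 times that in library 1 in MDA-MB-231, 0.882 times in BT-549, 1.08 times in NCI-H1395 and 1.38 times in AGS, and its part in these differences was not tested.

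In MDA-MB-231, the pair of NOP14 libraries gives a second view of the members, with 1 library per arm and hence no replicate check. Their log2 ratios of NOP14 overexpression to PCDH ran from -0.07 to 0.15, with a median of 0.03. *ANKRD1* had 1.11 times its PCDH level (1.07 to 1.15) and *THBS1* 0.954 times (0.939 to 0.969). None of the 10 passed 1.5-fold, which 0.646% of 12537 genes did.

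Both controls of MDA-MB-231 differed from each other in some members. *ANKRD1* had 667 CPM per kilobase in the control siRNA library, against 131 in PCDH, a ratio of 5.07 (4.93 to 5.22). The ADAR siRNA libraries, at 329 and 426 CPM per kilobase, lay between these controls. So did both ADAR siRNA libraries for *AMOTL2*, *AXL* and *F3*. Both were below either control for *CCN1*, *CCN2*, *AJUBA*, *THBS1* and *YAP1*, and for *LATS2* library 2 lay between the controls. The 10 of 10 members below control siRNA in this line are thus 5 of 10 below both controls. The share of all genes below both was not counted, so nothing is read from that number. PCDH is the control of the NOP14 library and not of the siRNA. Genes that are not members also differed between these controls, *NOP14* at 2.69 and *TEAD1* at 0.527 times PCDH in control siRNA, while *TEAD4* stood at 1.07. *AMOTL2* stood at 1.71 times, *AXL* at 1.60 and *F3* at 1.47 times the PCDH level in the control siRNA library, while *THBS1* stood at 0.998 and *YAP1* at 0.702. The ratios to control siRNA above rest on the single control library of a line, whose spread was not measured.

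**Figure D4:**
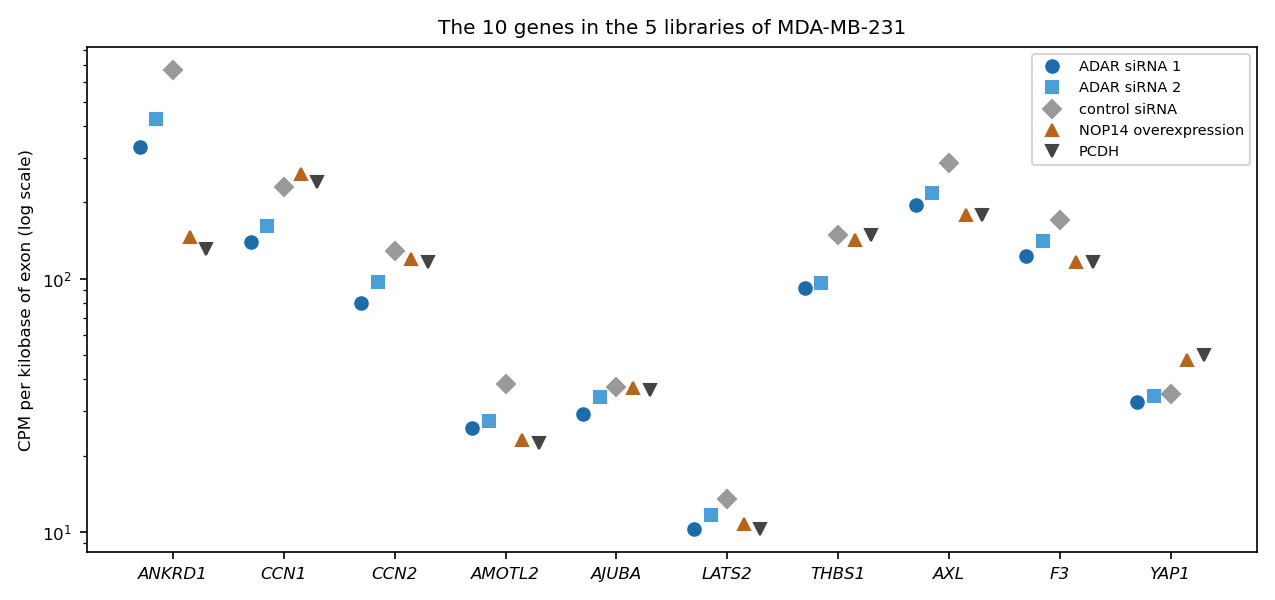
Level of the 10 genes in the 5 libraries of MDA-MB-231, as CPM per kilobase of exon on a log axis, for ADAR siRNA 1 and 2, control siRNA, NOP14 overexpression and PCDH. *ANKRD1* separates control siRNA, at 667, from PCDH, at 131, while NOP14 overexpression and PCDH nearly coincide for every gene.

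Related genes that are not members, in 7 lists, were tested with edgeR's quasi-likelihood fits. They cover the YAP, TAZ and TEAD complex, the Hippo kinase cascade, wider YAP and TAZ targets, SRF and MRTF targets, TGF-beta targets, AP-1 and immediate early genes, and family members and partners. Over the 4 lines, 0 of 102 list genes tested passed a Benjamini-Hochberg adjusted p of 0.05, where 0.0182% of all genes did. Of them 18 had an unadjusted edgeR p under 0.05, beside 2522 of all 21944 genes tested. DESeq2 called 6, of 502 over all genes. Wider YAP and TAZ targets had a positive log2 change in 11 of 15 genes, with a median of 0.16, beside 0.06 over all genes tested. The median was 0.05 in the YAP, TAZ and TEAD complex with 5 of 8 genes positive, and 0.08 in the kinase cascade with 14 of 22. It was 0.04 for SRF and MRTF targets with 9 of 17 positive, 0.36 for TGF-beta targets with 9 of 12, 0.28 for AP-1 genes with 11 of 12 and 0.19 for family members and partners with 10 of 16. Within MDA-MB-231 the wider targets were positive in 6 of 15 genes, with a median of -0.12, and within BT-549 in 14 of 15, with a median of 0.33. NCI-H1395 had 10 of 15 positive, with a median of 0.24, and AGS 5 of 15, with a median of -0.02. Positive changes were not confined to the wider targets in BT-549, where 81 of all 104 list genes tested were positive, with a median of 0.23. The median over all genes tested was 0.007 in MDA-MB-231 and 0.02 in NCI-H1395. For both BT-549 and AGS it was 0. The share of all genes tested with a positive change was not counted. Counts of positive list genes therefore do not by themselves set the lists apart from other genes. *NUAK2*, a kinase gene, had a log2 change of 0.51 ± 0.17 (standard error), with an edgeR adjusted p of 0.258. *NT5E*, which encodes the ectoenzyme CD73, and *RBMS3*, which encodes an RNA-binding protein, had 0.38 and 0.47, and neither passed. For *NT5E*, library 1 was below the control and library 2 above it in MDA-MB-231, BT-549 and NCI-H1395, and AGS had no counts.

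Among the partners of YAP, *WWTR1*, which encodes TAZ, had a log2 change of -0.06 ± 0.16 over the 4 lines. *TEAD1* had -0.20 ± 0.13, and *TEAD2*, *TEAD3* and *TEAD4* had 0.07, 0.04 and -0.06. *VGLL4*, a TEAD cofactor that competes with YAP, had 0.47 ± 0.13, with an edgeR adjusted p of 0.196. In AGS, *WWTR1* stood at 0.527 and 0.596 times its control level in libraries 1 and 2, and *TEAD1* at 0.580 and 0.662 times, with edgeR adjusted p of 0.877 and 0.976. In the kinase cascade, *WWC3*, a relative of the scaffold KIBRA, had a log2 change of -0.50 ± 0.12. The kinase genes *MAP4K4* and *LATS1* had 0.37 and 0.32, and none of these passed.

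In the lists outside the pathway, *VCL*, which encodes vinculin, had a log2 change of -0.55 ± 0.12 with an edgeR adjusted p of 0.138, the lowest of the lists. *VCL* had 623 and 366 CPM in ADAR siRNA libraries 1 and 2 of BT-549, against 600 CPM in the control. In AGS it had 365 and 150 CPM, against 344 CPM in the control. Both libraries were below the control in MDA-MB-231 and NCI-H1395. *SKIL*, a TGF-beta feedback gene, had 0.50 ± 0.12, with an adjusted p of 0.158 in edgeR. *SKIL* had 26.8 and 56.2 CPM in libraries 1 and 2 of BT-549, against 26.2 CPM in the control. In NCI-H1395 it had 65.3 and 163 CPM, against 68.4 CPM in the control. Both libraries were above the control in MDA-MB-231 and AGS. *FOS*, the AP-1 subunit gene, had 1.16 ± 0.31, with an edgeR adjusted p of 0.198. *TGFBI* had 1.52 ± 0.66, with 334 and 1296 CPM in ADAR siRNA libraries 1 and 2 of BT-549, against 221 CPM in the control, and 49.0 and 386 CPM, against 30.8 CPM, in NCI-H1395. Library 2 was the higher one in both lines, as for *CCN2*. Without MDA-MB-231, *TGFBI* was the 1 list gene that passed over the other lines, of 75 over all genes. *TAGLN* and *LTBP2* had 1.14 and 0.93, *SVIL* 0.40, *JUND* 0.26 and *FOSL1* -0.23. For *LTBP2*, library 1 was below the control and library 2 above it in MDA-MB-231, BT-549 and AGS. Both were above it in NCI-H1395.

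Within a line, 1 list gene passed. *THBS2*, the paralogue of *THBS1*, had 0 and 9 counts in the ADAR siRNA libraries of MDA-MB-231, against 140 counts in the control, with an edgeR adjusted p of 0.0279, and both libraries were lower. DESeq2 called it too, but leaving out either ADAR siRNA library, or scaling by library totals, ended the call. In that fit, 0.0751% of all genes passed. In BT-549 *THBS2* had 243 and 352 counts with ADAR siRNA, against 169 counts in the control, and did not pass. In BT-549, NCI-H1395 and AGS 0 list genes passed, where 0.00417% of all genes did in each. In that order, 8, 18 and 12 of 104 list genes had an unadjusted edgeR p under 0.05. Beside them 742, 1270 and 1193 of all 23959 genes tested did. DESeq2 called 0, 3 and 1 list genes, of 2, 43 and 10 over all genes. The response differed between lines in 0 list genes and in 0.0292% of all genes. For that difference 21 of 104 list genes had an unadjusted edgeR p under 0.05, beside 807 of all 23959 genes tested. DESeq2 called 1 list gene, of 36 over all genes. On simulated data with the changes in BT-549 alone, this test of the difference recovered 3% of 2-fold and 42% of 4-fold changes. A count of 0 therefore does not show that the lines responded alike. *THBS4*, *ITGAV* and *ITGB3*, a thrombospondin and integrin subunits, had log2 changes of 1.803, 0.33 and 0.69 over the 4 lines, and *THBS4* reached at most 3.11 CPM in any siRNA library.

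The genes whose 8 log2 ratios lay nearest to those of *ANKRD1*, by root mean square difference among 11084 protein-coding genes, were *TK1* and *CFD* at 0.21, *BIN1* at 0.26, and *UHRF1* and *H2AX* at 0.29, where the median gene lay at 0.82. These distances include BT-549, where *ANKRD1* had at most 1 count. Without that line, 1 of the 5 genes, *TK1*, was again among the nearest 5. The genes nearest to *THBS1* were *PEG10* at 0.30, *PAQR8* at 0.34, *ASTN2* and *HIP1* at 0.35, and *KIF5C* at 0.43, where the median gene lay at 1.02. These are likenesses over 8 libraries that share 4 controls, and they carry no test.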

How the data were processed

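Bulk poly(A) RNA libraries were made by the submitters with an mRNA capture and random hexamer kit, per the labels' protocols. The tools named are featureCounts 2.0.6, STAR 2.7.11a and fastp 0.23.4, with hg38 as the genome, per the submitters' processing notes. The deposited values are raw counts per gene and library. No source used here states the strand setting, and antisense neighbours may therefore share reads. Such neighbours with overlapping exons had at most 97 counts, beside *YAP1* with up to 8378. Of 62702 lines, 3 broken lines of *ANK2* were not used.

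Levels are CPM, scaled by TMM over 14 libraries. Ratios have exact conditional binomial 95% intervals, and log2 ratios a prior count of 2. Genes averaging 1 or more in log2 CPM formed the background of the ratios. List genes were tested in R 4.3.3 with edgeR 4.0.16 (filterByExpr, robust quasi-likelihood fits, Benjamini-Hochberg adjustment over all genes), with DESeq2 1.42.0 as an alternative. For the test over 4 lines, libraries 1 and 2 of each line were added together, and line and treatment were fitted with 3 residual degrees of freedom. Within lines 8 groups were fitted to 12 libraries with 4 residual degrees of freedom, on the assumption that each lone control varies as much as the pairs with ADAR siRNA. On simulated data, the test over 4 lines recovered 71% of 2-fold and 95% of 4-fold changes among 21760 genes. Those changes were of the same fold in every line and were put into genes averaging over 1 CPM. The shares therefore do not carry over to changes that differ between lines. With the changes in BT-549 alone, the test within BT-549 recovered 10% and 70% among 22873 genes.

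The members and the gene lists were chosen with earlier results of these data known. Genes named are the members, the targeted genes, *WWTR1* and *TEAD1* to *TEAD4*, the list genes called or else the 3 with the smallest p over 4 lines, and the 5 genes nearest to *ANKRD1* and to *THBS1*.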

Additional observations from a re-analysis of the deposited data

Results flagged for a closer look

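In 8 of the 10 genes, both ADAR siRNA libraries of at least 1 line were above the control while both libraries of another were below it. The share of all expressed genes that split in this way was not counted, so nothing is read from the number of members. Each value below is the gap in mean log2 ratio between the highest line above the control and the lowest line below it, from 2 libraries a line. These differences between lines were not tested, since the ratios chose the genes. *THBS1* had the widest gap, 1.94, with a mean of 1.28 in BT-549 and -0.66 in MDA-MB-231. *F3* had a gap of 1.67 between NCI-H1395 and MDA-MB-231, resting on 28 counts or fewer in each NCI-H1395 library. *CCN2* had 1.23 between BT-549 and MDA-MB-231, and *CCN1* had 1.05 between AGS and MDA-MB-231. *LATS2* had 0.99 between NCI-H1395 and MDA-MB-231, and *AXL* had 0.61 between AGS and MDA-MB-231. The narrowest gaps were those of *AJUBA*, 0.38 between AGS and MDA-MB-231, and *YAP1*, 0.35 between NCI-H1395 and MDA-MB-231. Scaled by library totals, *YAP1* in MDA-MB-231 had a mean of 0.07 instead of -0.06. For *AJUBA* and *AXL* the higher side rests on AGS values at the level of the control, where the counting interval of the ratio included 1 in library 1 of *AJUBA* and in both libraries of *AXL*. MDA-MB-231 was the lower line in all 8, and all 10 members were below the control in both of its ADAR siRNA libraries.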

How the results depend on the processing

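Under another scaling or prior count, 14 of 120 log2 ratios of ADAR siRNA to control moved by more than 1 SD of libraries 1 and 2, and 0 of 20 NOP14 ratios left their counting interval. Scaled by library totals, the mean log2 ratio changed sign for *YAP1* in MDA-MB-231, to 0.07, and for *F3* in AGS, to 0.06. Leaving out 1 ADAR siRNA library changed the sign in 9 of 80 cases, each where the control lay between both libraries, as for *CCN2* in AGS, at -0.17 without library 2. Members past 1.5-fold in both libraries numbered 2 in MDA-MB-231 and 1 in each other line. Scaled by library totals they numbered 1 in MDA-MB-231 and 2 in NCI-H1395. At the lower of the other limits tried they numbered 6 in MDA-MB-231, 4 in NCI-H1395, 3 in AGS and 2 in BT-549, and at 2-fold 0 in every line. With 1 ADAR siRNA library left out they numbered 2 to 4 in MDA-MB-231, 1 to 4 in BT-549, and 3 in both AGS and NCI-H1395. List genes called over the 4 lines numbered 0 in the main fit, 9 with no count filter, 6 with DESeq2 and 1, *TGFBI*, without MDA-MB-231. The calls over all genes numbered 4, 394, 502 and 75 in that order. In MDA-MB-231, *THBS2* was lost by library totals, by requiring 10 counts in every library and by leaving out either ADAR siRNA library, which each gave 0. With no count filter, 2 list genes were called in BT-549, of 27 over all genes, and 4 in NCI-H1395, of 72. In AGS 1 was called, of 33, and for the difference between lines 4, of 126. DESeq2 called 3 in NCI-H1395, of 43 over all genes, 1 in AGS, of 10, and 1 for the difference, of 36. Leaving out 1 ADAR siRNA library gave 0 to 2 in BT-549, 2 to 3 in NCI-H1395 and 0 to 3 for the difference. With the library number as a replicate block, 4 list genes were called in MDA-MB-231, of 187 over all genes, 5 in BT-549, of 42, and 11 in NCI-H1395, of 149. In AGS 1 was called, of 65, for the difference 12, of 210, and over the 4 lines 0, of 2. The numbers share no stated origin, and the correlation of library 2 minus library 1 between lines ran from -0.087 to 0.461 over 6 pairs of lines. It was 0.205 to 0.461 in the 3 pairs among BT-549, NCI-H1395 and AGS, whose libraries 1 and 2 thus differed in a partly shared way. With MDA-MB-231 it was at most 0.046, and below 0 in 2 pairs. Since not every pair was over 0.1, the numbers were not taken to pair the samples. The causes of these changes were not tested. The nearest genes without BT-549 and the count of members below the control under other scalings were chosen after seeing the data. One control library a line and the few counts of *F3* and *ANKRD1* in BT-549 limit what depth can show.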
